A study of Mus musculus with 16 samples.

Results

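The 9 genes described here encode surface proteins found on neutrophils, grouped here as neutrophil surface receptors: Fpr1, Fpr2, Ly6g, Csf3r, Trem1, Clec4d, Clec4e, Itgb2l and Il18rap. They were taken by symbol from the 32078 genes of the deposited expression table. All 9 were found, and all 9 passed the filter on low values (10 or more normalised reads in 2 or more libraries), as did 19189 genes in all. Ly6g and Itgb2l passed that filter through a single group, SDS alone at day 3. The RNA came from whole skin of 7-week-old mice, and the titles place the 16 libraries in 8 groups of 2. The groups are SDS alone at days 0, 1, 3 and 5, and SDS with Topsym at days 0, 1, 3 and 5. SDS (sodium dodecyl sulfate) is a detergent that irritates skin, and Topsym is known as a brand of fluocinonide, a potent topical glucocorticoid, a meaning taken from background knowledge because the labels give none. All 8 groups carry SDS in their titles. The labels give topical treatment for 4 days, and neither the start of each treatment nor what the day 0 groups had received is given in the sources used here. Changes between days therefore mix SDS with time and with the animals sampled, which cannot be told apart.

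Neutrophils leave the blood within hours of an injury and follow chemical signals to it. Fpr1 and Fpr2 are G protein-coupled receptors for formylated peptides of bacteria and damaged mitochondria, Csf3r is the receptor for granulocyte colony-stimulating factor, and Trem1, Clec4d and Clec4e are receptors that amplify inflammatory signals through adaptor chains. Ly6g is the surface antigen by which mouse neutrophils are recognised, Itgb2l is an integrin beta chain made by neutrophils, and Il18rap is the signalling chain of the interleukin-18 receptor. Monocytes carry several of these receptors too, and T cells and natural killer cells carry Il18rap.

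In GRCm38 (mm10), with gene models of GENCODE M21, the 9 genes lie on 6 chromosomes. Clec4d (chr6:123262111-123275265, plus strand) and Clec4e (chr6:123281789-123289870, minus strand) are neighbours, as are Fpr1 (chr17:17876471-17883940, minus strand) and Fpr2 (chr17:17887824-17893952, plus strand). Trem1 lies on the same chromosome as the Fpr genes (chr17:48232768-48246924). The others are Il18rap (chr1:40515362-40551705), Csf3r (chr4:126024550-126044440), Ly6g (chr15:75155240-75159126) and Itgb2l (chr16:96422288-96443619, minus strand). Fpr2 overlaps Fpr3 on the same strand, Itgb2l overlaps Igsf5 on the other strand, and Trem1 overlaps a processed pseudogene on the other strand. The strand setting of the counting is not stated in the labels or notes, so overlapping genes may share reads here. Ly6g belongs to a family of near copies, and its reads may be split among them.

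Because the 9 genes peaked in the same group, the bases before their starts were read for the letters of 4 motifs. RefSeq promoters (GRCm38.p6) were found for 9 of 9 genes. The letters searched on both strands of the 250 bases before each start were GAGGAA, the core bound by PU.1, a factor that myeloid cells need, and TTGCNNAA, a site of C/EBP factors, which direct granulocyte genes. The degenerate consensus sites of NF-kB and of the glucocorticoid receptor were searched as well. Shown are the promoters of Ly6g and Itgb2l, the genes read almost wholly in a single group, and of the neighbours Clec4d and Clec4e, 5′ to 3′ on the strand of the gene, without bases that GENCODE places in a transcript. Capitals mark matches to the PU.1 core (GAGGAA or TTCCTC) and, in Ly6g and Clec4e, to the C/EBP site as well (TTGAGCAA and TTGTGCAA).
Ly6g (chr15:75155011-75155239, plus strand): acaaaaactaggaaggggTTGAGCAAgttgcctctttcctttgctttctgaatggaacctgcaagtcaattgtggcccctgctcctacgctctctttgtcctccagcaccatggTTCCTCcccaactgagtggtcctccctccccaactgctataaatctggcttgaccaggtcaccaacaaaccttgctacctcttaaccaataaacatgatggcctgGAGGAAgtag
Itgb2l (chr16:96443620-96443864, minus strand): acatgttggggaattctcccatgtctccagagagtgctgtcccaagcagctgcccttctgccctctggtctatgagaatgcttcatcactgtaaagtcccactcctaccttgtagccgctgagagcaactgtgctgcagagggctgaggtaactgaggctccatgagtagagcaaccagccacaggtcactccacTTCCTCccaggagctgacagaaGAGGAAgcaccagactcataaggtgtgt
Clec4d (chr6:123261857-123262106, plus strand): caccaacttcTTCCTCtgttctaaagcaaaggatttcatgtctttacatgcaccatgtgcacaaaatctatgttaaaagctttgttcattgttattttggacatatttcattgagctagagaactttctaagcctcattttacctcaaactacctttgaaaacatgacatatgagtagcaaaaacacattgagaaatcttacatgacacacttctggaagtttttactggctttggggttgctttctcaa
Clec4e (chr6:123289872-123290121, minus strand): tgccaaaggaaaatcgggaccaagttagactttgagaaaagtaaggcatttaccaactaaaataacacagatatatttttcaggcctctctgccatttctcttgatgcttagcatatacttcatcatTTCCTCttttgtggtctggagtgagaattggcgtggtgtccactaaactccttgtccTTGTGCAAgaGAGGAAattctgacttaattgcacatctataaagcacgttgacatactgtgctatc
The PU.1 core occurred in 8 of 9 members and in 23.3% of 32851 promoters of the same length. Fpr1 was the member without it. These counts take the full 250 bases, and the match of Csf3r was absent once bases that GENCODE places in a transcript were left out. The C/EBP site occurred in 2 of 9 members, Ly6g and Clec4e, and in 9.56% of promoters. The NF-kB site occurred in 1 of 9 members, Csf3r, and in 7.25% of promoters, and that of the glucocorticoid receptor in 0 of 9 and in 0.167%. In the promoters shown, no C/EBP match shared a base with a PU.1 match. A match describes letters and does not show binding.

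The libraries held 15199656 to 32066246 reads, recovered from the deposited values as described under the processing. The 4 day 5 libraries stood apart, with 19885 to 20774 genes detected against 22875 to 23740 in the others, and with 10.3 to 14.8% of reads in their 10 highest genes. Scaling to library totals shifted the median of all genes at day 5 by over 0.1, to -0.42 against day 0 for SDS alone, to -0.64 with Topsym and to -0.24 for Topsym against none. The 13 skin genes (keratins, collagens and others) had reads in every group, and so did the 6 muscle genes, whose summed level ranged from 71881 to 422994 normalised reads over the libraries. The mean summed level of the skin genes was 1000280, 729217, 449371 and 1758460 at days 0, 1, 3 and 5 of SDS alone. With Topsym it was 1136530, 750916, 774294 and 2615830. At day 3 against day 0 of SDS alone, 9 of the 13 fell and 3 rose. Their part in the results was not tested. Nothing in the labels says that libraries came from separate animals. The p-values set differences of group means against the spread between libraries of a group, pooled over all groups. Limma also draws the spread of each gene toward that of genes at a similar level. For a gene at 0 in most libraries, such as Ly6g, the SE and p-value rest largely on those other genes. The spread between libraries may be technical.

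All 9 receptors were highest at day 3 of SDS alone. Values are normalised reads, and levels set between genes are per kilobase of exon. On that scale Clec4d led at day 3 with 2990 ± 73.9 (SD, n = 2), followed by Fpr1 with 908 ± 57.3 and Csf3r with 866 ± 8.49. Trem1 (591 ± 49.3), Fpr2 (534 ± 29.0), Clec4e (368 ± 11.7), Il18rap (186 ± 12.7), Ly6g (144 ± 21.9) and Itgb2l (38.3 ± 2.43) followed. The SDs of Fpr1 and Csf3r, and those of Trem1 and Fpr2, reached across the gap between them. Clec4d alone made up 45.1% of the summed level per kilobase.

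Relative to that peak, the members stood at a median of 0.244% at day 0, 1.36% at day 1 and 9.19% at day 5 of SDS alone. With Topsym the medians were 0.576%, 1.46%, 3.29% and 1.08% at days 0, 1, 3 and 5. The highest of the 9 at day 3 with Topsym was Csf3r, at 7.01% of its level without it. In whole skin, fewer cells of a type and less RNA per cell cannot be told apart.

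**Figure D1:**
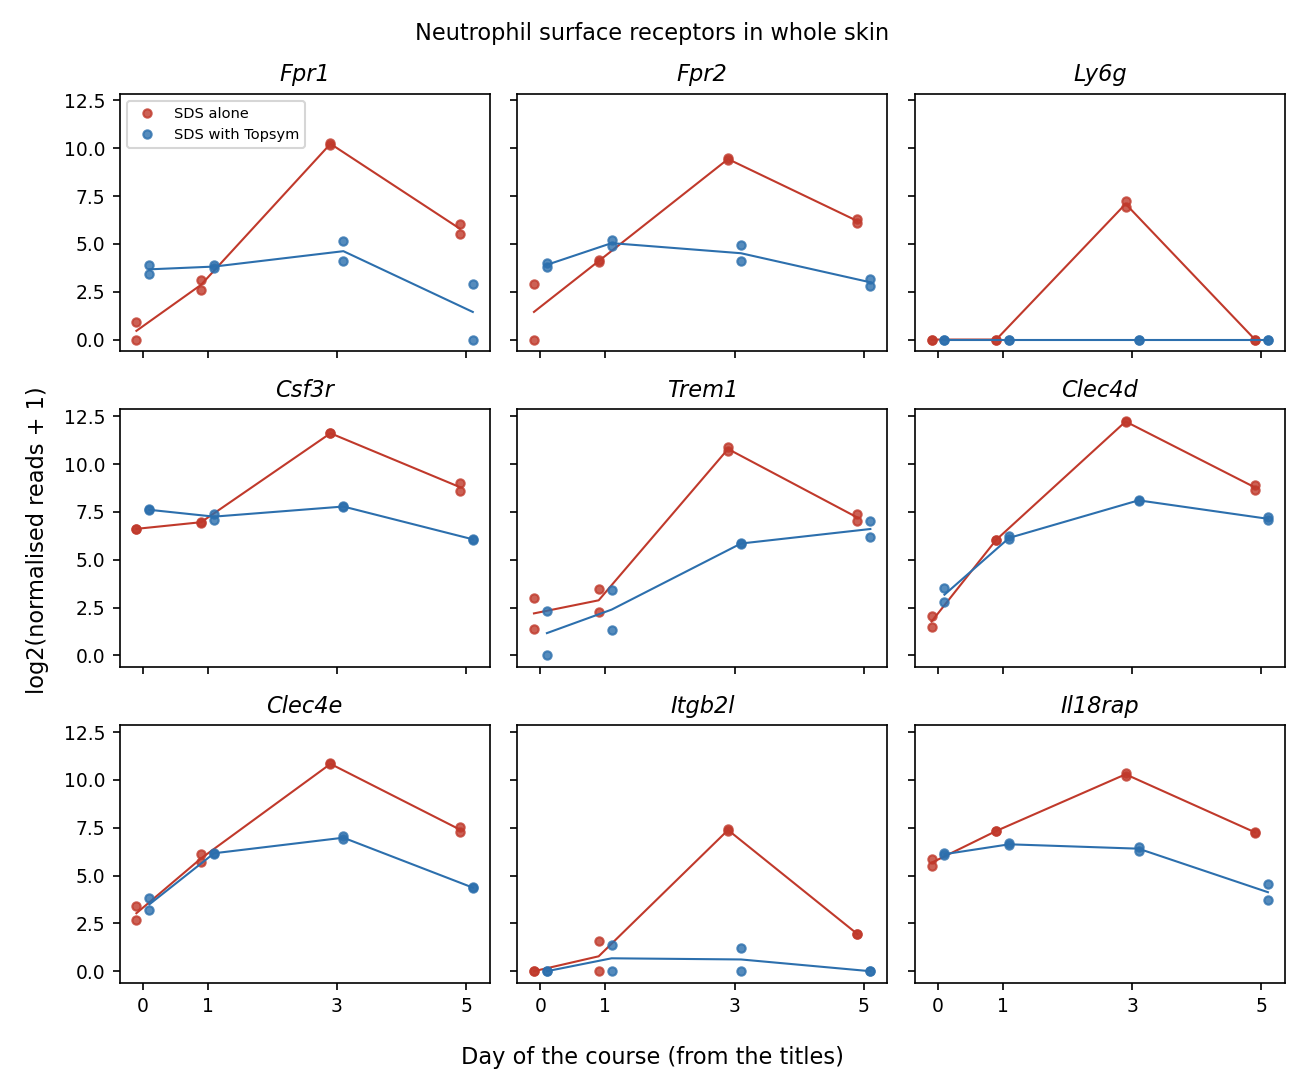
The level of each of the 9 receptors, as log2(normalised reads + 1), on the vertical axis against the day of the course on the horizontal axis. Points are single libraries, 2 per group, and lines join the group means of SDS alone (red) and SDS with Topsym (blue). Each red line peaks at day 3, and the blue points at day 3 lie below the red ones in all 9 panels.

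Among the chemoattractant receptors, Fpr1 read 0.881 and 0 in the 2 libraries of day 0 of SDS alone, 7.77 and 5.04 at day 1, 1256 and 1149 at day 3 and 65.4 and 45.3 at day 5. With Topsym it read 14.1 and 9.75, 12.3 and 13.9, 34.4 and 16.1, and 0 and 6.39 at the same days. Its level at day 3 of SDS alone stood far above every other library, and its day 0 group held 1 read in all. The ratio of means of day 3 to day 0 was 2730.4, with a 95% counting interval of 489.6 to 107883. That interval and the counting intervals below treat each read as a separate count. Both ends of a fragment often entered the counts separately, so they are too tight. Fpr2 read 0 and 6.41, 15.5 and 16.8, 665 and 718, and 66.9 and 77.9 at days 0, 1, 3 and 5 of SDS alone. In the Topsym arm it read 15.1 and 13.0, 28.6 and 35.6, 29.5 and 16.1, and 6.05 and 7.99. The change of Fpr2 from day 0 to day 3 was 7.99 ± 0.65 (SE) on the scale of log2(normalised reads + 1), with an adjusted p of 2.56e-08 by limma. That scale understates the change of genes with low values.

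The cytokine receptors started from higher levels. Csf3r, through which neutrophils are made and kept alive, read 96.0 and 97.8 at day 0 of SDS alone, 126 and 121 at day 1, 3146 and 3102 at day 3 and 387 and 507 at day 5. Under Topsym the libraries read 191.0 and 197.5, 168 and 136, 212 and 226, and 66.6 and 65.5. With Topsym Csf3r thus stayed between 136 and 226 until day 3, while SDS alone at day 3 was above all other libraries by a wide margin. The change from day 0 to day 3 of SDS alone was 4.997 ± 0.15 (adjusted p 9.4e-14, limma). Il18rap read 56.4 and 44.1, 160.2 and 159.5, 1194 and 1315, and 149 and 154 in SDS alone at days 0, 1, 3 and 5, and its change to day 3 was 4.62 ± 0.25 (adjusted p 1.7e-10). With Topsym it read 65.3 and 71.5, 102 and 94.3, 90.1 and 77.8, and 12.1 and 22.4.

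The lectin receptors Clec4d (also called MCL) and Clec4e (Mincle) sense fungal and mycobacterial glycolipids and dead cells. Clec4d read 1.76 and 3.21 at day 0 of SDS alone, 65.1 and 64.6 at day 1, 4698 and 4865 at day 3 and 404 and 475 at day 5. Its change to day 3, 10.45 ± 0.26 (adjusted p 7.47e-15), was the largest fitted change of the 9. With Topsym Clec4d read 6.03 and 10.6, 73.6 and 65.7, 282 and 267, and 133 and 147. Clec4e read 5.29 and 9.62, 50.5 and 68.0, 1787 and 1869, and 185 and 153 at days 0, 1, 3 and 5 of SDS alone, a change to day 3 of 7.81 ± 0.31 (adjusted p 3.21e-12). In the Topsym arm it read 8.04 and 13.0, 69.5 and 71.9, 131 and 119, and 20.2 and 19.2. At day 1 all libraries of both genes lay between 50.5 and 73.6, and at day 3 the arms of both were far apart.

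Trem1, which amplifies the response to microbial products, read 7.05 and 1.60 at day 0 of SDS alone, 3.88 and 10.1 at day 1, 1874 and 1665 at day 3 and 128 and 167 at day 5. Under Topsym the libraries read 4.02 and 0, 9.82 and 1.55, 54.9 and 58.3, and 129 and 71.9. The groups of days 0 and 1 overlapped in both arms, and so did the day 5 groups of both arms. The change from day 0 to day 3 of SDS alone was 8.59 ± 0.76 (adjusted p 7.44e-08). Trem1 was the member for which Topsym at day 5 was higher than Topsym at day 3 in both libraries, although that difference, 0.76 ± 0.76, did not pass the test (adjusted p 0.405).

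Ly6g and Itgb2l were read almost wholly at day 3 of SDS alone. Ly6g read 122 and 151 there and had 0 reads in the other 14 libraries, including day 5 of SDS alone. Against the limit that 0 counts allow (3 reads over the group), day 3 was at least 108-fold higher than day 0 and at least 63.9-fold higher than day 5. Itgb2l read 158 and 173 at day 3 of SDS alone, 2.85 and 2.83 at day 5, 1.94 and 0 at day 1, and 0 at day 0. With Topsym it read 0 and 0, 0 and 1.55, 0 and 1.34, and 0 and 0. Day 3 of SDS alone was at least 132-fold higher than day 0. These limits treat each read as a separate count, although both ends of a fragment often entered the counts separately, so they are too tight.

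At day 1 of SDS alone against day 0, 5 of 9 members rose and 0 fell, where 12.8% of all tested genes rose. They were Clec4d (4.27 ± 0.26, adjusted p 2.96e-09), Clec4e (2.87 ± 0.31, adjusted p 2.85e-06), Fpr2 (2.66 ± 0.65, adjusted p 0.0059), Il18rap (1.66 ± 0.25, adjusted p 9.86e-05) and Fpr1, whose ratio of means was 14.5 (95% counting interval 2.21 to 615). Csf3r changed by 0.35 ± 0.15 (adjusted p 0.107) and Trem1 by 0.68 ± 0.76 (adjusted p 0.582), and Itgb2l and Ly6g had at most 2 reads a group. The median over the 9 was 1.66, or 2.66 without the 2 members that allow no fold, against -0.03 over all genes. Of the 15 monocyte and macrophage markers 9 rose in the same comparison, and their summed level went from 34277 to 34993 at day 0 to 49383 to 51123 at day 1. Of 6 red blood cell genes 5 rose, and 6 of 6 muscle genes fell. The part of these markers in the result was not tested. The call of Fpr1 was lost without replicate 2 of day 0 (1.95) or without replicate 1 (2.14) or 2 (2.68) of day 1, and that of Fpr2 without replicate 1 of day 0 (1.21) or in a fit of the libraries compared alone (2.66). Without replicate 2 of day 0 the change of Fpr2 was 4.10.

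At day 3 against day 0, 9 of 9 members rose, where 25.4% of tested genes rose. At day 3 against day 1, 9 of 9 rose, where 23.6% did. Ly6g and Itgb2l passed the filter through day 3 of SDS alone only, so their rise was fixed by the filter. The 9 members were also chosen with earlier results of these data known. These counts therefore describe the members and test nothing about them, as do those of other comparisons with this group below. The median change against day 0 was 7.81, against -0.01 over all genes. No library of day 3 overlapped a library of day 0 or day 1 for any member. The share of all genes without overlap is not given, here or for the comparisons below. The changes from day 1 to day 3 ranged from 2.96 ± 0.25 for Il18rap (adjusted p 6.05e-08) to 7.91 ± 0.76 for Trem1 (adjusted p 2.73e-07). Trem1 and Csf3r, which had not passed the test at day 1, rose by 7.91 and by 4.65 ± 0.15 (adjusted p 4.54e-13) over this interval. DESeq2 on recovered reads called 8 of the 9 in both comparisons and did not call Ly6g.

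Other neutrophil genes rose at day 3 as well. Of 37 tested genes for other surface receptors of neutrophils, 36 rose and 0 fell, with a median of 2.86. Cd177, a surface glycoprotein of neutrophils, rose from 4.89 ± 4.42 to 1023 ± 27.0, and Cd300lf, an inhibitory receptor of myeloid cells, from 20.2 ± 2.54 to 3289 ± 80.0. Mrgpra2b went from 0 reads to 129 ± 2.38 at day 3, at least 102.5-fold higher. Of 18 tested granule and cytosol proteins 15 rose and 1 fell (median 5.29), led by Ngp (0 reads to 2931 ± 26.9) and Retnlg (3.28 ± 2.15 to 9586 ± 44.3). The 6 tested CXC chemokines, most of them ligands of Cxcr2, all rose. Cxcr2, the receptor that guides neutrophils along those chemokines, went from 46.9 ± 16.5 to 2825 ± 137 (5.93 ± 0.23, adjusted p 1.83e-12). Members of these lists were chosen with earlier results of these data known, so the counts describe the lists and test nothing about them.

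Markers of other cells moved over the same days. Of the 15 monocyte and macrophage markers 13 rose and 1 fell at day 3 against day 0, with a median of 1.14, and their summed level went from 34277 to 34993 up to 73772 to 75673. All 15 had reads in every group. Of 17 tested T and natural killer cell markers 0 rose and 13 fell, and their sum went from 3005 to 3037 down to 794 to 813, with Cd8a at 0 reads at day 3. Those cells also carry Il18rap. Of 6 tested red blood cell genes 6 rose, with sums of 2405 to 3070 at day 0 and 9343 to 10968 at day 3. The part of any of these cells in the result was not tested.

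The chains that the receptors signal through and the ligands they bind did not move alike. Tyrobp, the adaptor of Trem1, went from 864 ± 101 at day 0 to 3389 ± 236 at day 3 of SDS alone (1.97 ± 0.10, adjusted p 7.62e-11). Fcer1g, the adaptor of Clec4e and Clec4d, went from 1273 ± 68.0 to 4550 ± 78.3 (1.84 ± 0.07, adjusted p 3.05e-12). Both adaptors serve many receptors of myeloid cells. Among the integrins, Itgb2, the beta chain that Itgb2l resembles, rose by 2.14 ± 0.07 (adjusted p 3.79e-13) and its alpha chain partner Itgam by 3.46 ± 0.19 (adjusted p 2.18e-10). Il18r1, which binds interleukin-18 and pairs with Il18rap, read 223 ± 0.516 at day 0 and 187 ± 24.8 at day 3, a change of -0.26 ± 0.22 that did not pass the test (adjusted p 0.349). Of 25 tested signalling genes 20 rose and 1 fell at day 3, with a median of 1.35.

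Csf3, the ligand of Csf3r, read 0.881 and 3.21 at day 0, 15.5 and 5.04 at day 1, 568 and 614 at day 3 and 75.4 and 73.7 at day 5 of SDS alone. Its change to day 3 was 7.72 ± 0.61 (adjusted p 1.68e-08). Il18, the cytokine that the Il18rap chain answers to, went the other way, from 864 ± 2.54 to 400 ± 19.7 (-1.11 ± 0.07, adjusted p 2.24e-09). Saa3, of the serum amyloid A family (some members are ligands of Fpr2), went from 20.9 ± 15.8 to 39741 ± 1642, and Saa1 from 1.60 ± 2.27 to 547 ± 15.7. Saa2 went from 0 reads to 162 ± 39.2 at day 3, at least 128.5-fold higher. Reads of the Saa genes can be shared between near copies. Pglyrp1, a granule protein and a ligand of Trem1, went from 52.7 ± 6.49 to 491 ± 70.6 (3.19 ± 0.24, adjusted p 8.43e-09). Anxa1, a ligand of Fpr receptors that damps neutrophil entry, stood at 16918 ± 663 and 16375 ± 71.3 (-0.05 ± 0.04, adjusted p 0.349). Camp, whose peptide also binds Fpr2, did not pass the filter, with 3.28 ± 2.15 at day 0 and 9.99 ± 5.88 at day 3. Of 10 tested ligands 6 rose and 2 fell.

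**Figure D2:**
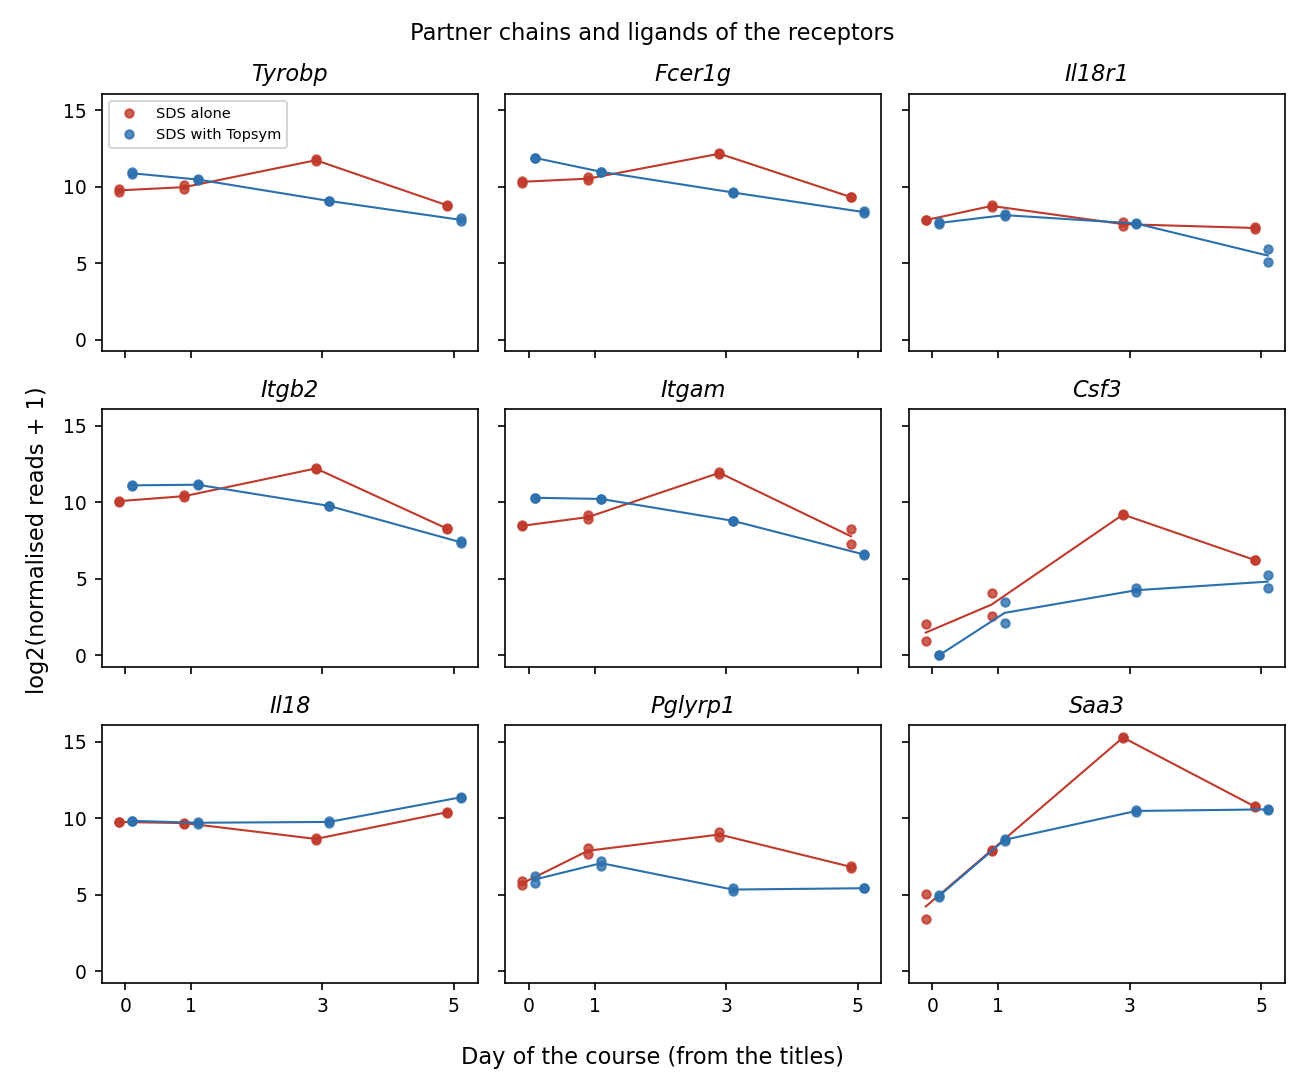
Adaptor and partner chains (Tyrobp, Fcer1g, Il18r1, Itgb2, Itgam) and ligands (Csf3, Il18, Pglyrp1, Saa3) of the receptors, as log2(normalised reads + 1) on the vertical axis against the day of the course. Points are single libraries, 2 per group, lines join group means, red is SDS alone and blue is SDS with Topsym. At day 3 the red points of Csf3 and Saa3 stand far above the blue ones, while those of Il18r1 overlap and those of Il18 lie below.

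From day 3 to day 5 of SDS alone, 9 of 9 members fell, where 34.5% of tested genes fell. The falls that could be fitted ran from -2.81 ± 0.15 for Csf3r (adjusted p 5.74e-11) and -3.04 ± 0.25 for Il18rap (adjusted p 1.71e-08) to -4.44 ± 0.72 for Fpr1 (adjusted p 4.88e-05) and -5.44 ± 0.78 for Itgb2l (adjusted p 1.26e-05). The groups did not overlap for any member. Of the summed level per kilobase, Clec4d made up 45.1% at day 3 and 45.6% at day 5, and Csf3r 13.1% and 20.6%. DESeq2 called 8 of 9, without Ly6g. Against day 0, 8 of 9 members were still higher at day 5, where 30.7% of tested genes were higher. Ly6g was the exception, and Itgb2l, at least 2.26-fold higher on 4 reads, lost its call without either library of day 0 or of day 5, with a pseudocount of 4 and with scaling to library totals. Of all genes called, 46.2% were higher at day 5 against day 0 and 29.8% with scaling to library totals, and 45.6% and 31.7% against day 3.

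The granule and cytosol proteins did not follow the receptors as a whole. Of 18 tested, 14 fell from day 3 to day 5, such as Ngp (2931 ± 26.9 to 44.0 ± 14.2) and Retnlg (9586 ± 44.3 to 143 ± 41.6), while 3 rose. These were S100a8, from 10337 ± 439 to 49038 ± 586, S100a9, from 29998 ± 202 to 215731 ± 7349, and Stfa2, from 621 ± 39.997 to 8573 ± 48.8, named after their values were seen. S100a8 and S100a9 form calprotectin, which neutrophils carry in bulk and irritated keratinocytes also make. Of 15 monocyte and macrophage markers 14 fell from day 3 to day 5, and their sum of 16975 to 17200 at day 5 was below that of day 0. Against day 0, 1 of the 15 was higher at day 5 and 14 were lower. Of 17 T and natural killer cell markers 16 were lower against day 0, 6 of 6 red blood cell genes were higher and 6 of 6 muscle genes were lower. Their part in the result was not tested. Cxcr2 went from 2825 ± 137 to 1104 ± 34.2 (-1.35 ± 0.23, adjusted p 6.7e-05).

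**Figure D3:**
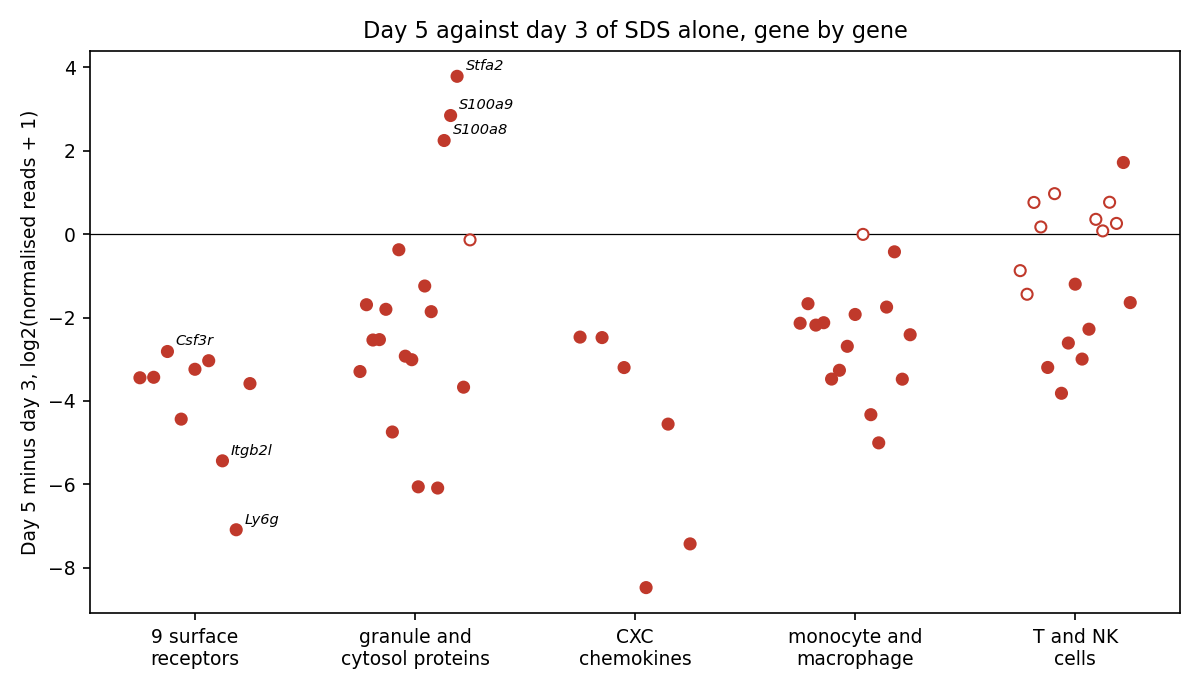
Day 5 minus day 3 of SDS alone, as a difference of log2(normalised reads + 1), for each gene of 5 lists along the horizontal axis. Points are genes, filled where the adjusted p is under 0.05. The 9 receptors lie between -2.81 and -7.09, and S100a8, S100a9 and Stfa2 lie above 0.

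The days were also compared within the Topsym arm. Against day 0 with Topsym, 2 of 9 rose at day 1 (20.3% of tested genes rose), Clec4d by 2.97 ± 0.26 (adjusted p 1.07e-07) and Clec4e by 2.67 ± 0.31 (adjusted p 3.12e-06). At day 3, 3 of 9 rose (27.0% of tested genes), Clec4d by 4.93 ± 0.26 (adjusted p 8.22e-11), Clec4e by 3.49 ± 0.31 (adjusted p 6.68e-08) and Trem1 by 4.68 ± 0.76 (adjusted p 6.04e-05). Csf3r, Fpr1, Fpr2 and Il18rap differed from day 0 by 0.17 to 0.95 at day 3 and did not pass the test. Both counts lie near the share over all genes. Against day 0 with Topsym, 12 of 15 monocyte and macrophage markers, 16 of 17 T and natural killer cell markers and 6 of 6 red blood cell genes were lower at day 3, and 6 of 6 muscle genes were higher at day 1. Also at day 1, 12 of 17 T and natural killer cell markers and 4 of 6 red blood cell genes were lower, and 0 of either were higher. Of the monocyte and macrophage markers 6 were higher and 4 lower at day 1. Their part in the result was not tested. The count of members called at day 1, in either direction, was 5 with edgeR or DESeq2 on recovered reads (4 higher and 1 lower). It was 4 without the day 5 libraries (3 higher and 1 lower). These values rest on the 2 day 0 libraries with Topsym, in which 4 members were already higher than without it.

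From day 1 to day 3 with Topsym, 4 of 9 rose (22.1% of tested genes rose): Trem1 by 3.46 ± 0.76 (adjusted p 0.00135), Clec4d by 1.96 ± 0.26 (adjusted p 9.58e-06), Clec4e by 0.81 ± 0.31 (adjusted p 0.0442) and Csf3r by 0.53 ± 0.15 (adjusted p 0.00873). The count was 2 without replicate 2 of day 1 or without replicate 2 of day 3 with Topsym. The call of Clec4e was also lost with no filter, with scaling to library totals and without any of 6 libraries left out in turn, those of days 1 and 3 with Topsym and of day 3 of SDS alone (changes of 0.75 to 0.88). From day 3 to day 5, 5 of 9 fell (35.1% of tested genes fell): the changes were -3.18 for Fpr1, -2.61 for Clec4e, -2.27 for Il18rap, -1.71 for Csf3r and -0.97 for Clec4d. The fall of Fpr1, which read 0 and 6.39 at day 5, was -1.73 without replicate 1 of day 5 with Topsym and lost its call in a fit of the libraries compared alone (-3.18). All 15 monocyte and macrophage markers, 11 of 17 T and natural killer cell markers and 6 of 6 muscle genes were lower at day 3 than at day 1 with Topsym, and 13 of 15 monocyte and macrophage markers were lower at day 5 than at day 3. Their part in the result was not tested. Scaling to library totals moved the share of calls that were higher from 43.6% to 19.9% in this comparison.

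At day 5 against day 0 with Topsym, 3 of 9 were higher, where 32.8% of tested genes were, and 3 of 9 were lower, where 37.5% were. Clec4d (3.97 ± 0.26, adjusted p 6.53e-10), Trem1 (5.44 ± 0.76, adjusted p 8.03e-06) and Clec4e (0.88 ± 0.31, adjusted p 0.02) were higher. Csf3r (-1.54 ± 0.15, adjusted p 1.07e-07), Il18rap (-1.99 ± 0.25, adjusted p 2.54e-06) and Fpr1 (-2.23 ± 0.72, adjusted p 0.0117) were lower. Of 15 monocyte and macrophage markers 14 were lower (median -3.36), as were 16 of 17 T and natural killer cell markers (median -4.57) and 6 of 6 red blood cell genes, and their part in the result was not tested. Clec4e lost its call with scaling to library totals (0.33), with both count tests, in a fit of the libraries compared alone (0.88) and without replicate 1 of day 0 (0.56) or of day 5 (0.84) with Topsym, and Fpr1 with edgeR, in a fit of the libraries compared alone and without replicate 1 of day 0 (-1.98) or of day 5 (-0.78) with Topsym. Without replicate 2 of day 5 with Topsym the change of Fpr1 was -3.67. Of all genes called, 46.6% were higher, and 22.8% with scaling to library totals.

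Topsym was compared with none at each day. At day 0, 4 of 9 members were higher with Topsym and 0 lower, where 10.8% of tested genes were higher: Csf3r (1.00 ± 0.15, adjusted p 0.000118), Clec4d (1.40 ± 0.26, adjusted p 0.000774), Fpr2 (2.46 ± 0.65, adjusted p 0.0115) and Fpr1 (ratio of means 27.0, 95% counting interval 4.44 to 1109). Clec4d, Fpr1 and Fpr2 stood at 14.1 normalised reads or less in the 2 groups except for 15.1 in replicate 1 with Topsym for Fpr2. In the same comparison 14 of 15 monocyte and macrophage markers were higher with Topsym (sums of 74887 to 75550 against 34277 to 34993), 6 of 6 red blood cell genes were higher and 6 of 6 muscle genes were lower. Their part in the result was not tested. The count was 2 in a fit of the libraries compared alone or without replicate 1 of day 0 with Topsym, and the call of Fpr2 was also lost without replicate 1 of day 0 of SDS alone (1.02) or without replicate 2 of day 0 with Topsym (2.56). Without replicate 2 of day 0 of SDS alone the difference of Fpr2 was 3.91.

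At day 1, 0 of 9 members passed the test in limma, where 9.8% of tested genes did. At an unadjusted p under 0.05 there was 1, and edgeR called 1 and DESeq2 2. The differences of the 7 members that allow a fold ran from -0.70 ± 0.25 for Il18rap (adjusted p 0.105) to 0.95 ± 0.72 for Fpr1 (adjusted p 0.543). The libraries of Trem1 and Itgb2l overlapped between the arms, and Ly6g had 0 reads in both. Those of Csf3r, Clec4d, Clec4e, Fpr1, Fpr2 and Il18rap did not overlap. For Fpr2 they read 15.5 and 16.8 against 28.6 and 35.6 with Topsym, and for Il18rap 160.2 and 159.5 against 102 and 94.3. No share of all genes without overlap is given beside this, and none of these members passed the test in limma. In the same comparison 11 of 15 monocyte and macrophage markers and 5 of 6 muscle genes were higher with Topsym and 3 of 6 red blood cell genes were lower, and their part in the result was not tested. The count was 1 without the day 5 libraries or without either day 5 library with Topsym. Of all genes called, 56.2% were higher with Topsym, and 45.5% with scaling to library totals.

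At day 3, 9 of 9 members were lower with Topsym, where 22.9% of tested genes were lower. Csf3r (-3.83 ± 0.15, adjusted p 5.51e-12), Clec4e (-3.86 ± 0.31, adjusted p 3.1e-08), Il18rap (-3.89 ± 0.25, adjusted p 2.1e-09) and Clec4d (-4.12 ± 0.26, adjusted p 1.51e-09) lay close together. Fpr2 (-4.92 ± 0.65, adjusted p 1e-05), Trem1 (-4.94 ± 0.76, adjusted p 5.13e-05) and Fpr1 (-5.61 ± 0.72, adjusted p 7.31e-06) followed, with larger SEs. Ly6g was at least 123-fold lower, and the ratio of means of Itgb2l was 0.00405 (95% counting interval 0.000488 to 0.0147). No library with Topsym overlapped a library without it. The median over the 9 was -4.92, against -0.04 over all genes, and DESeq2 called 8 of 9, without Ly6g.

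Other genes differed at day 3 too. Of 18 granule and cytosol proteins 13 were lower with Topsym and 1 was higher, and of 37 other surface receptors 35 were lower and 1 was higher. All 6 CXC chemokines were lower. Of the 15 monocyte and macrophage markers 14 were lower (median -1.06), with sums of 36877 to 37677 against 73772 to 75673, and 5 of 6 red blood cell genes and 6 of 6 muscle genes were lower as well. Their part in the result was not tested. Among the ligands, Csf3 (-4.95 ± 0.61, adjusted p 4.43e-06), Saa3 (-4.80 ± 0.30, adjusted p 1.51e-09) and Pglyrp1 (-3.60 ± 0.24, adjusted p 2.68e-09) were lower, Il18 (1.11 ± 0.07, adjusted p 3.05e-09) was higher, and Il18r1 differed by 0.04 ± 0.22 (adjusted p 0.906). Tyrobp (-2.66 ± 0.10, adjusted p 3.57e-12) and Fcer1g (-2.53 ± 0.07, adjusted p 1.91e-13) were lower.

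At day 5, 6 of 9 members were lower with Topsym, where 24.2% of tested genes were lower. Fpr1 (-4.35 ± 0.72, adjusted p 0.000118), Fpr2 (-3.20 ± 0.65, adjusted p 0.000737), Il18rap (-3.13 ± 0.25, adjusted p 5.62e-08), Clec4e (-3.03 ± 0.31, adjusted p 8.63e-07), Csf3r (-2.73 ± 0.15, adjusted p 6.35e-10) and Clec4d (-1.64 ± 0.26, adjusted p 7.81e-05) passed. Trem1 read 128 and 167 without Topsym and 129 and 71.9 with it, and the groups overlapped (-0.60 ± 0.76, adjusted p 0.558). Itgb2l did not pass (adjusted p 0.0519), with 4 reads against 0, and Ly6g had 0 reads in both groups. Clec4d made up 57.0% and Trem1 21.8% of the summed level per kilobase with Topsym, against 45.6% and 8.17% without it. Of 15 monocyte and macrophage markers 13 were lower with Topsym (sums of 12541 to 13529 against 16975 to 17200), 6 of 17 T and natural killer cell markers and 5 of 6 red blood cell genes were lower, and 6 of 6 muscle genes were higher. Their part in the result was not tested. The call of Fpr1 was lost in a fit of the libraries compared alone (-4.35). Of all genes called, 48.3% were higher, and 26.0% with scaling to library totals.

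**Figure D4:**
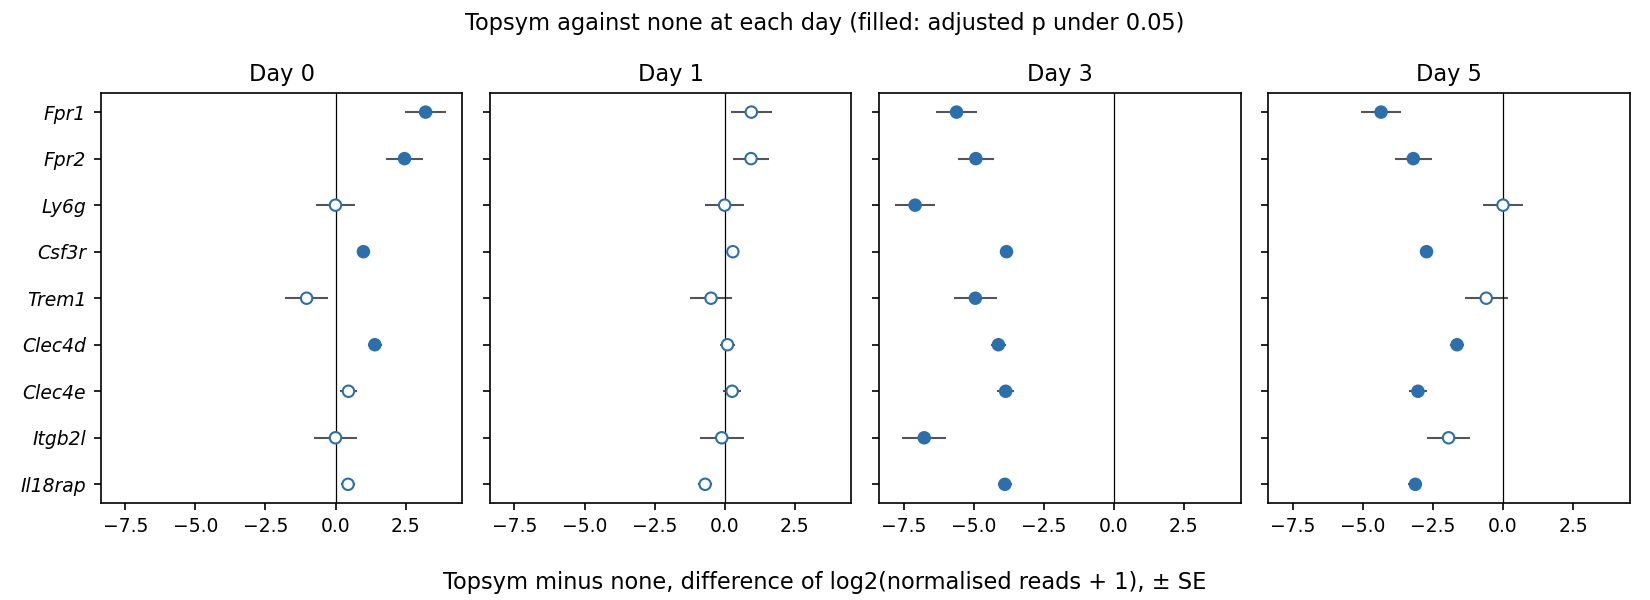
Topsym minus none for each of the 9 receptors at days 0, 1, 3 and 5, as a difference of log2(normalised reads + 1) on the horizontal axis, with bars of ± 1 SE. Points are filled where the adjusted p is under 0.05. All 9 points lie left of 0 at day 3, and none is filled at day 1.

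The change over each interval was then compared between the arms. From day 1 to day 3 it was lower with Topsym for 9 of 9 members, where 18.2% of tested genes were, with a median difference of -4.45 against -0.04 over all genes. On the recovered reads edgeR and DESeq2 each called 8 of 9, without Ly6g. The difference was also lower for 14 of 15 monocyte and macrophage markers (median -1.87), 5 of 6 red blood cell genes and 6 of 6 muscle genes. From day 0 to day 1 it was lower for 6 of 6 red blood cell genes and higher for 6 of 6 muscle genes, and from day 3 to day 5 it was higher for 9 of 15 monocyte and macrophage markers and 6 of 6 muscle genes. The part of these markers in the results was not tested. Among the members, from day 0 to day 1 it was lower for 3 of 9 (8.06% of tested genes), which were Clec4d (-1.30 ± 0.37, adjusted p 0.021), Il18rap (-1.15 ± 0.36, adjusted p 0.0357) and Csf3r (-0.70 ± 0.21, adjusted p 0.0309). That count fell to 0 without replicate 1 or 2 of day 1 of SDS alone, or without replicate 2 of day 0 or of day 1 with Topsym. It was 1 without replicate 1 of day 0 or either library of day 3 of SDS alone, without replicate 1 of day 0 with Topsym, and in a fit of the libraries compared alone. From day 3 to day 5 it was higher with Topsym for 5 of 9 (19.0% of tested genes), which were Clec4d (2.48 ± 0.37, adjusted p 5.67e-05), Csf3r (1.10 ± 0.21, adjusted p 0.000644), Trem1 (4.34 ± 1.08, adjusted p 0.00448), Itgb2l and Ly6g. For Itgb2l and Ly6g the Topsym arm was at or near 0 reads at both days, and both calls were lost with edgeR and with DESeq2. Of all genes called, 50.8% were higher over this last interval and 29.9% with scaling to library totals, and 53.3% and 43.0% from day 0 to day 1.

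Over the 8 group means the 36 pairs of members had Pearson correlations of 0.535 (Trem1 with Il18rap) to 0.983 (Fpr1 with Fpr2), with a median of 0.875. The points share libraries and a single high group, so these values are descriptions. All other genes were ranked by their correlation with the mean profile of the 9, among those with a group mean of at least 100. Cd14, the co-receptor for bacterial lipopolysaccharide, came first (0.995), followed by Plaur, the urokinase receptor (0.985), Tut7 (0.980), Nlrp3, an inflammasome sensor (0.979), Cyth3 (0.977), Spp1, which encodes osteopontin (0.975), Brpf1 (0.973), Efhd2 (0.972), Grina (0.966) and Ngp (0.966). Cd14 rose from 223 ± 1.71 at day 0 to 11927 ± 200.04 at day 3 of SDS alone.

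By member, the closest profiles were those of Mrgpra2b for Ly6g (0.995), Grina for Itgb2l (0.996) and Saa3 for Clec4d (0.989). Mrgpra2b, like Ly6g, had 0 reads in SDS alone except at day 3, and 2 reads at day 3 with Topsym. Csf3r was closest to Arg2 (0.987), Trem1 to Cstdc4 (0.985), Fpr1 to Efhd2 (0.981), Clec4e to Ppp2r2d (0.980), Il18rap to Chd2 (0.977) and Fpr2 to Tut7 (0.973). Of the members, Trem1 had the lowest correlation with the mean of the 9 (0.837) and Itgb2l the highest (0.970).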

How the data were processed

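RNA of whole skin was extracted with a column kit and made into strand-specific libraries, per the labels' protocols. The authors deposited 1 normalised expression signal per gene and library. The submitters' processing notes name Trim Galore 0.6.7, HISAT2 2.2.1, featureCounts 2.0.3, DESeq2 2.11.40.8 and the build mm10, with no order or role. Low values in every library showed that 1 read is worth a fixed step: 100% of values divided by it gave whole numbers, within 1e-04, which were taken as recovered reads. Among counts of 1 to 20, 69.9 to 76.8% were even, so both ends of a fragment often entered separately.

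The members and lists were chosen with earlier results of these data known. Genes at 10 or more in 2 or more libraries were fitted together, as log2(value + 1) in 8 group means, with limma 3.58.1 in R 4.3.3 (trend of variance on level, 8 residual degrees of freedom). The spread of each gene was moderated toward that trend, so SEs and p-values also draw on other genes. P-values were adjusted over all 19189 genes by Benjamini and Hochberg in each of 17 comparisons, with a threshold of 0.05. Named were all 9 members, at most 4 genes of another list by size of change at day 3, 14 chosen ligands and partner chains, and the closest profiles. Floors on a fold took 3 reads over a group, and groups of 1 to 3 reads were given a ratio of means with a 95% counting interval, which covers counting error alone. Floors and intervals treat each read as a separate count, so they are too tight. The fit was also run on simulated data, whose outcome is not given here, and no result rests on that run.

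Other settings tried were a fit without the filter, a pseudocount of 4, TMM scaling of edgeR 4.0.16, only the libraries compared, the replicate number as a block, each library left out in turn, and edgeR and DESeq2 1.42.0 on recovered reads. Leaving out the day 5 libraries and scaling to library totals were added after the data were seen. Positions came from GENCODE M21 and promoters from RefSeq. Libraries of a group differed by more than the sampling noise of single reads (chi-square over degrees of freedom from 3.13 to 6.98), so none was counted as a copy. Counting both ends of a fragment separately raises this ratio. It cannot tell separate animals from repeated preparations of the same tissue. The series' design text describes sorted cells of another experiment and was not used.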

Additional observations from a re-analysis of the deposited data

Results flagged for a closer look

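The results below stand out because a change differed between the arms by the test of that difference (the change with Topsym minus the change in SDS alone, on the scale of log2(normalised reads + 1), limma). From day 1 to day 3 all 9 members did. The differences were -3.19 for Il18rap, -4.12 for Csf3r, -4.13 for Clec4e, -4.22 for Clec4d, -4.45 for Trem1, -5.86 for Fpr2, -6.56 for Fpr1, -6.66 for Itgb2l and -7.09 for Ly6g. Their direction was the same in each of the alternatives run. The adjusted p ran from 2.49e-10 for Csf3r to 0.00381 for Trem1. Ly6g had 0 reads outside day 3 of SDS alone, so its value restates that group and depends on the pseudocount. Its call was lost with edgeR and with DESeq2 on recovered reads. The Topsym arm of Itgb2l held at most 2 reads a group. Both genes passed the filter through day 3 of SDS alone only.

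From day 0 to day 1 the differences were -0.70 for Csf3r, -1.15 for Il18rap and -1.30 for Clec4d, with adjusted p values of 0.0309, 0.0357 and 0.021. All 3 calls were lost without either day 1 library of SDS alone. From day 3 to day 5 the differences were 1.10 for Csf3r, 2.48 for Clec4d, 4.34 for Trem1, 4.82 for Itgb2l and 7.09 for Ly6g. In the last interval the Topsym arm of Itgb2l held 2 reads at day 3 and 0 at day 5, and that of Ly6g 0 at both.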

How the results depend on the processing

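Of the 153 values of a member in a comparison, 96 passed the test, and 74 of these passed it under every alternative run. None of the 96 changed direction. The counts of 9 of 9 at day 3 of SDS alone against days 0 and 1, and for Topsym against none at day 3, were 8 with DESeq2.

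Counts of members called moved by over 1.5 times as follows, and the cause was not tested. At day 1 against day 0 with Topsym the count of 2 was 4 without the day 5 libraries, and 5 with edgeR and with DESeq2. Each of these included 1 member that was lower. At day 3 against day 1 with Topsym it was 4, and 2 to 4 with a library left out. For Topsym against none at day 0 it was 4, with 2 in a fit of the libraries compared alone and 2 to 4 with a library left out. For Topsym against none at day 1 it was 0, with 1 without the day 5 libraries, 1 with edgeR, 2 with DESeq2 and 0 to 1 with a library left out. For the difference between arms from day 0 to day 1 it was 3, with 1 in a fit of the libraries compared alone and 0 to 4 with a library left out. For that from day 3 to day 5 it was 5, with 8 at a pseudocount of 4 and 3 with edgeR. Over all genes, Topsym against none at day 5 gave 8976 calls, and 4028 in a fit of the libraries compared alone. On the recovered reads edgeR called 9161 genes for Topsym against none at day 3, against 8401 by limma. At day 1 Topsym against none gave 1881, with 2835 without the day 5 libraries, 999 without replicate 1 of SDS alone at day 1, and 921 and 924 without replicate 1 or 2 of Topsym at day 1.

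Values that had not passed the test and changed sign with a library left out are given by their lowest and highest. For Trem1 they were -0.13 to 1.5 at day 1 against day 0 of SDS alone, -2.19 to 0.13 for Topsym against none at day 0, -1.53 to 0.56 at day 1, and -0.62 to 1.71 for the difference between arms from day 0 to day 1. For Itgb2l they were -0.74 to 0.61 at day 3 against day 1 with Topsym, -0.88 to 0.67 for Topsym against none at day 1, and -0.88 to 0.67 for the difference between arms from day 0 to day 1. For Fpr1 they were -0.10 to 0.39 at day 1 against day 0 with Topsym and -0.18 to 2.70 for the difference between arms from day 3 to day 5. For Clec4e they were -0.57 to 0.18 for the difference between arms from day 0 to day 1.

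With the replicate number as a block, the counts of members called equalled those without it in all 17 comparisons, for example 9 for Topsym against none at day 3. Over 28 pairs of same-numbered libraries of different groups, the correlations of deviations from the group means over 12294 genes ran from -0.149 to 0.168, and 2 were over 0.1, so the numbers were not taken to pair the samples. With 2 libraries a group, leaving one out assumes that the lone library varies like the others. At day 0 and day 1 Ly6g and Itgb2l had at most 2 reads a group, so differences between those groups were not detectable at this depth.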
